A study of Mus musculus with 69 samples.

Results

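Male mice exposed to early life stress (ELS) were compared with male mice of standard rearing (Standard) by RNA sequencing of the nucleus accumbens, in animals that all carried the control vector. The comparison comprised 16 of the 69 samples of the series, 8 labelled ELS and 8 labelled Standard, chosen by their condition label and by GFP as the genotype label. Nothing measured was used to choose them. Every gene that passed a filter on low counts entered the tests, which left 14016 genes. The labels give male sex, nucleus accumbens, polyA RNA and GFP for both groups; the strain, the age, the stress procedure and the vector's promoter are not given in these sources. The other 16 RNA libraries carried vectors directed at the histone methyltransferase DOT1L, and the remaining samples were chromatin libraries.

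The series concerns dimethylation of histone H3 at lysine 79 (H3K79me2), which DOT1L deposits over the bodies of transcribed genes, and its part in the lasting effects of early stress. The nucleus accumbens belongs to the ventral striatum and takes part in reward and motivation. Most of its neurons are medium spiny neurons, GABAergic cells that carry either the dopamine receptor D1 (D1-type, with substance P and dynorphin) or D2 (D2-type, with enkephalin and an adenosine receptor). The RNA is labelled by tissue, and whether cells or nuclei were sorted first is not settled here. Markers of astrocytes, oligodendrocytes, microglia and vessels were measured in it. Fewer cells of a type cannot be told apart from less RNA per cell.

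Library totals ran from 1.76 to 11.1 M (1e6) counts in ELS and from 0.314 to 9.80 M in Standard. Standard replicates 1, 4 and 5 held under 1 M counts (0.980, 0.314 and 0.546 M), and no ELS library did. These 3 are called the shallow libraries below. Levels are counts per 1e6 counts (CPM) on library sizes scaled by TMM, and are not divided by gene length, so they are compared within a gene only. Between any 2 of the 16 libraries the log2 counts correlated across genes at 0.681 to 0.935, and no 2 were identical. The Y-linked gene Uty was present in all 16, at 21.9 CPM or more, as the male label requires. Of the markers of medium spiny neurons, Pde10a, their phosphodiesterase, was at least 269 CPM in every library, and Drd2 at least 29.6 CPM. Of the D1-type markers, Drd1 fell to 0.183 CPM in an ELS library and Tac1 to 0.0 CPM in a Standard library. Ebf1, also of the D1-type list, was at least 8.81 CPM, and the D2-type marker Adora2a fell to 1.10 CPM in an ELS library. Whether the samples of a group came from separate animals is not given, so p-values measure the spread between these samples.

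Both tests found no gene past an adjusted p of 0.05. The count model, edgeR's quasi-likelihood test with Benjamini-Hochberg adjustment, called 0 of 14016 genes (0.0%), with a smallest adjusted p of 0.12. An exact 2-sided permutation test of rank sums, which gives a single extreme library no more weight than any other, called 0 genes (0.0%) with a smallest adjusted p of 0.792. At an unadjusted p under 0.05 the rank test held 758 genes (5.41% of those tested), 528 of them higher in ELS (3.77%) and 230 lower (1.64%). EdgeR leaned the other way at the same unadjusted level, with 560 genes higher (4.0%) and 1084 lower (7.73%). Upper quartile scaling gave 670 higher and 139 lower genes in the rank test, and 701 higher and 701 lower in edgeR. With the number in the sample titles as a factor edgeR gave 490 higher and 425 lower genes, without that lean. Title number 1 is carried by 4 ELS and 1 Standard libraries, number 2 by 1 and 3, number 3 by 1 and 2, and number 4 by 2 and 2, and what it stands for is not given. Without the shallow libraries the rank test held 466 higher and 381 lower genes. DESeq2 called 88 genes, and edgeR called 7 once the 3 shallow Standard libraries, and 1 Dot1l knockdown library of the shared fit that also held under 1 M counts, were left out. Single libraries moved these unadjusted counts: 341 genes were higher in edgeR without ELS replicate 2, 668 were lower without Standard replicate 6, and 344 were higher in the rank test without Standard replicate 5.

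The genes below are therefore described by their levels and ranks, and none of them passed the tests across all genes. Effects are given as the number of the 64 pairs of an ELS and a Standard library in which the ELS library was higher, and as the log2 ratio of the group medians with 0.5 CPM added to each. Over all genes tested the median log2 ratio was 0.05, with the ELS median higher for 7839 genes (55.9%) and lower for 6177 (44.1%). EdgeR's log2 fold change had a median of -0.01 over the same genes.

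Phlpp1 was the only gene of the 14016 whose groups did not overlap (0.00713%). Shuffled labels would separate a gene fully with a probability of 0.000155, which is larger than that share, so chance alone could give such a gene. It encodes a phosphatase that removes an activating phosphate from the kinase AKT. Its lowest, median and highest ELS libraries stood at 82.9, 94.3 and 101 CPM, and those of Standard at 109, 125 and 139 CPM. Every ELS library lay below every Standard library, 0 of 64 pairs, which gave an exact permutation p of 0.000155, the smallest that 8 against 8 libraries allow, and an adjusted p of 0.792. The log2 ratio of medians was -0.40, and edgeR gave a log2 fold change of -0.43 with an SE of 0.19 and an adjusted p of 0.358. Leaving out the shallow libraries could not bring an overlap, apart from rescaling, because the pairs left are among the 64 (0 of 40 pairs, log2 ratio -0.36).

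Promoters are shown for Phlpp1, for the leading higher gene Acsl5 and for the circadian factor Tef, from RefSeq on GRCm38.p6. Each is 250 bases before a transcription start, read 5′ to 3′ on the plus strand, with any E-box in capitals. The E-box CACGTG, which reads alike on both strands, is the element bound by CLOCK and its partners.

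Phlpp1, chr1:106171619-106171868: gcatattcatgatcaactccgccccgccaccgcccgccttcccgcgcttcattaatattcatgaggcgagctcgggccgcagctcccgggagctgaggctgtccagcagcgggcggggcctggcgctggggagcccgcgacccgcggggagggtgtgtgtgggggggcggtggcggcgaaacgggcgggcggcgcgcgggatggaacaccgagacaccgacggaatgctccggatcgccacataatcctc

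Tef, chr15:81802423-81802672: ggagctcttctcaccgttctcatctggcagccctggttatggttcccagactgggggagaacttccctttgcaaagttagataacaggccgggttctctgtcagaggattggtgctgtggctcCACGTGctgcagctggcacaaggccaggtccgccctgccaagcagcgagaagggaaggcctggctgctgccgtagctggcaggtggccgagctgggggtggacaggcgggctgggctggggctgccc

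Acsl5, chr19:55253119-55253368: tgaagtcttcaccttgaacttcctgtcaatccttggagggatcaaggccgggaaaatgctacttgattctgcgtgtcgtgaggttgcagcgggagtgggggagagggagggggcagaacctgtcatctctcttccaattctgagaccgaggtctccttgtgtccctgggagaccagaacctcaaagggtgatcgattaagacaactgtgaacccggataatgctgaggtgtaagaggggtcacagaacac

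The Phlpp1 window held 31 CG dinucleotides and no E-box, the Acsl5 window 7 CG and no E-box, and the Tef window 8 CG and 1 E-box. Tef's other start in the table also held 1 E-box. Of all 32851 windows of this length, 6.02% held CACGTG. Among the leading genes with a window, 1 of 10 lower genes (Tef) and 1 of 9 higher genes (Osgep) held it in any of their windows. Some genes have more than 1 window, so these counts per gene are not on the same footing as the share of windows. In the authors' deposited H3K79me2 lists the first Phlpp1 peak began 384 bases after the start in Standard and 165 bases after it in ELS. None of these peaks reached into the printed bases.

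The 11 further genes led the lower side of the rank test. Tef, a transcription factor of the circadian output, stood at 29.7, 34.0 and 47.7 CPM in ELS (lowest, median, highest) and at 39.3, 48.4 and 54.1 CPM in Standard. ELS was higher in 4 of 64 pairs (exact p = 0.00186), and the groups overlapped through the upper ELS libraries. Tet2, which oxidises methylcytosine in DNA, stood at 32.9, 52.9 and 67.2 CPM in ELS and at 58.4, 74.0 and 219 CPM in Standard. The pairs favoured Standard in all but 6 of 64 for Tet2 (exact p = 0.00466). The highest Tet2 values, 219, 184 and 159 CPM, were those of the shallow Standard replicates, and its log2 ratio moved from -0.48 to -0.28 without them. Megf10, a phagocytic receptor of astrocytes, had a median of 13.2 CPM in ELS and 25.6 CPM in Standard, a log2 ratio of -0.93. Mapk7, a MAP kinase, had medians of 3.40 and 6.90 CPM, with 1 Standard library at 44.0 CPM, and was higher in ELS in 4 of 64 pairs.

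The rest of this side covered different functions. Nkapd1 stood at medians of 5.87 CPM in ELS and 11.4 CPM in Standard (3 of 64 pairs, exact p = 0.00109), a log2 ratio of -0.90 that became -0.49 without the shallow libraries. Fam20a, a pseudokinase of the secretory pathway, had medians of 10.4 and 17.5 CPM (5 of 64 pairs). Vat1, Adss (an enzyme of AMP synthesis), Gak (a kinase of clathrin uncoating), Tspan7 (a tetraspanin) and Fads2 (a fatty acid desaturase) were each higher in ELS in 6 of 64 pairs, with log2 ratios of -0.76, -0.49, -0.46, -0.41 and -0.37. Gak and Fads2 each had 1 Standard library far above the others, replicate 6 at 219 and 213 CPM, which their medians do not follow. Without the shallow libraries Adss fell short of an unadjusted exact p of 0.05 (7 of 40 pairs, p = 0.0653), and the other 11 leading lower genes kept an exact p of 0.0451 or less. The libraries left there had also chosen the genes, so they give no independent check.

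**Figure D1:**
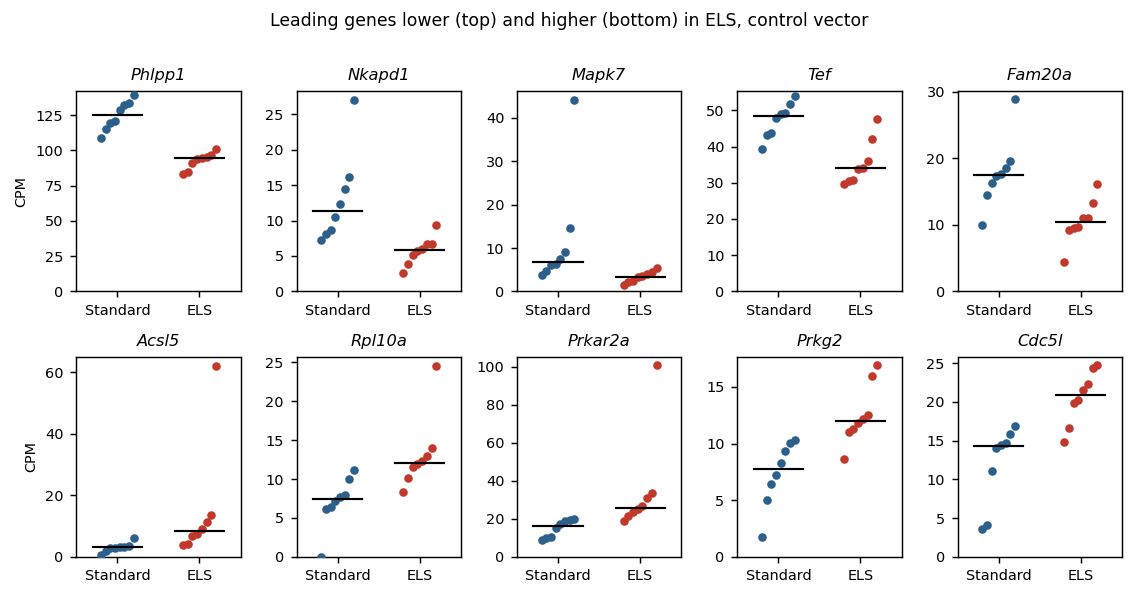
CPM of the 5 leading lower genes (top row) and the 5 leading higher genes (bottom row) in each Standard (blue) and ELS (red) library, with the group median as a black bar on a linear axis. Phlpp1 shows no overlap (ELS 82.9 to 101 CPM, Standard 109 to 139 CPM), and Acsl5 and Prkar2a each have 1 ELS library far above the rest.

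On the higher side Acsl5, a long-chain acyl-CoA synthetase, led. It stood at 3.84, 8.30 and 62.0 CPM in ELS and at 0.603, 3.02 and 6.21 CPM in Standard, and ELS was higher in 62 of 64 pairs (exact p = 0.000622). Its log2 ratio of medians was 1.32, while edgeR's log2 fold change, which follows means, was 2.32 with an SE of 0.56 and an adjusted p of 0.12. The highest value was ELS replicate 2. Without the shallow libraries the groups did not overlap (40 of 40 pairs). Dusp5, a phosphatase of ERK kinases that neuronal activity induces, stood at 6.98, 12.7 and 149 CPM in ELS and at 0, 3.12 and 9.88 CPM in Standard. It was higher in ELS in 60 of 64 pairs (exact p = 0.00186), again with ELS replicate 2 at the top. The log2 ratio of Dusp5 was 1.87, and 1.11 without the shallow libraries.

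Kinase and RNA genes made up part of the remaining 10. Prkar2a, a regulatory subunit of protein kinase A, stood at 18.5, 25.9 and 101 CPM in ELS and at 8.81, 16.2 and 19.9 CPM in Standard (61 of 64 pairs, exact p = 0.00109). Prkg2, a protein kinase driven by cyclic GMP, had medians of 11.98 and 7.73 CPM. Cdc5l, a splicing factor, had medians of 20.8 and 14.2 CPM, and the histone chaperone Nap1l4 29.1 and 20.3 CPM. The large ribosomal subunit genes Rpl10a and Rpl15 had medians of 12.1 and 5.67 CPM in ELS against 7.43 and 2.93 CPM in Standard. The group closed with Tnfsf10, a death ligand (8.20 and 3.84 CPM), Osgep, a tRNA-modifying enzyme (8.72 and 4.35 CPM), Jkamp (6.67 and 3.97 CPM) and Fam92a (15.98 and 10.2 CPM). The libraries left without the shallow ones had also chosen these genes, so they give no independent check. All 12 kept an unadjusted exact p of 0.0295 or less without the shallow libraries, where the largest adjusted p was 0.816. The log2 ratios of Tnfsf10 and Rpl15 went from 1.00 and 0.85 to 0.44 and 0.56 there.

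Dab2, Snx25 and Nifk joined the named genes through the count model. Dab2, an adaptor of endocytosis, stood at 4.16, 9.83 and 109 CPM in ELS and at 1.76, 5.15 and 8.28 CPM in Standard, with an edgeR log2 fold change of 1.99 and a log2 ratio of medians of 0.87. Snx25, a sorting nexin, stood at 16.8, 26.4 and 34.6 CPM in ELS and at 30.5, 35.4 and 223 CPM in Standard. For Nifk, a nucleolar protein, edgeR gave -2.95 and the medians -0.61, with Standard replicates 1, 6 and 5 at 148, 109 and 47.6 CPM. Each of the 3 had an edgeR adjusted p of 0.12. Without the shallow libraries none of the 3 kept an unadjusted exact p under 0.05 (0.0653 for Dab2 and Snx25, 0.284 for Nifk), and the log2 ratio of Nifk was -0.26.

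How far a single library set the fold change was measured for every gene. In 470 genes (3.35%) 1 library held more than 50% of the CPM summed over the 16. That library was a Standard one for 330 genes (replicate 6 for 145, replicate 5 for 131, replicate 1 for 54) and an ELS one for 140 (replicate 2 for 123). Of the 1084 genes lower by edgeR at an unadjusted p under 0.05, 241 (22.2%) were of this kind, and for 182 (16.8%) the medians lay on the other side. Of the 560 higher genes 120 (21.4%) were of this kind and 35 (6.25%) had medians on the other side. The lower genes had a median edgeR log2 fold change of -1.12 and a median log2 ratio of medians of -0.29; for the higher genes these were 1.38 and 0.62. The rank test shared 158 of the lower and 243 of the higher genes at its own unadjusted level.

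**Figure D2:**
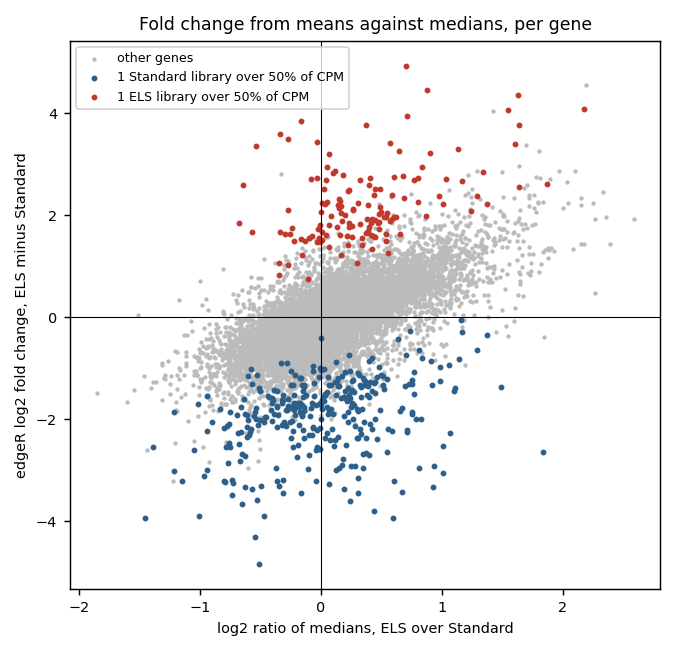
EdgeR log2 fold change (y axis) against the log2 ratio of medians (x axis) for the 14016 genes, with genes in which 1 Standard library (blue, 330) or 1 ELS library (red, 140) holds over 50% of the summed CPM. The blue genes lie below 0 and the red genes above 0 on the y axis, on both sides of 0 on the x axis.

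The 7 genes that edgeR called without the shallow libraries were Rfc5, Gm9774, Washc1, Ndufab1, Fa2h, Gm29114 and Tarsl2, named here after their values were seen. All 7 had an adjusted p of 0.0482, were lower in ELS and had Standard replicate 6 as the highest library. Fa2h, which hydroxylates myelin fatty acids, also separated by rank there, at 0 of 40 pairs (rank test adjusted p = 0.749). Its levels were 4.22, 6.67 and 11.9 CPM in ELS against 12.3, 17.6 and 106 CPM in Standard. With all 16 libraries its groups overlapped, and ELS was higher in 16 of 64 pairs (exact p = 0.105). Ndufab1 and Gm29114 did not separate by rank without the shallow libraries, with ELS higher in 15 and 16 of 40 pairs.

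The direction of the small rank p-values went with the level of the gene, a split chosen after these values were seen. Below a median of 5 CPM, 295 genes (5.84% of 5054) were higher and 38 (0.752%) lower. From 5 to 20 CPM, 160 (3.36% of 4765) were higher and 72 (1.51%) lower. From 20 to 100 CPM, 68 (1.96% of 3464) were higher and 92 (2.66%) lower. At 100 CPM or more, 5 (0.682% of 733) were higher and 28 (3.82%) lower. Depth moved with the groups, since all 3 shallow libraries were Standard. Without them the classes held 298 higher and 74 lower genes below 5 CPM, 116 and 139 from 5 to 20 CPM, 47 and 140 from 20 to 100 CPM, and 5 higher and 28 lower at 100 CPM or more.

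**Figure D3:**
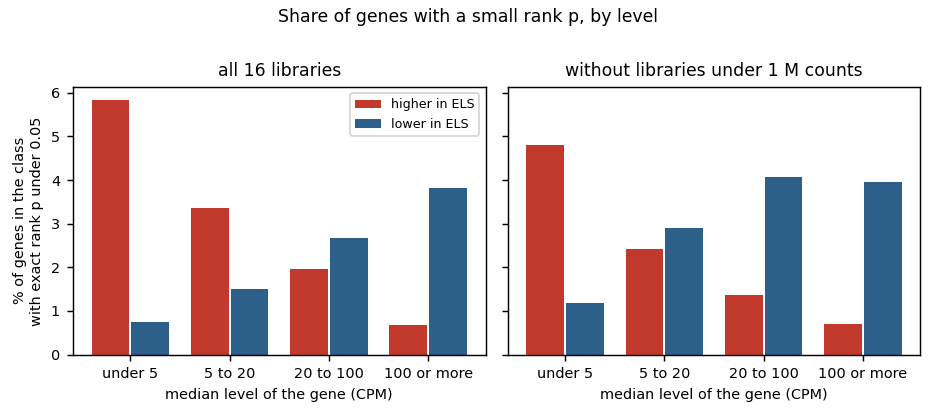
Percentage of the genes of each level class (median CPM over the libraries) with an exact rank p under 0.05, higher (red) or lower (blue) in ELS, with all 16 libraries (left) and without the shallow ones (right). At 100 CPM or more the lower genes make up 3.82% and 3.95% of the class, and the higher genes 0.682% and 0.705%.

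Markers of glia had lower medians in ELS. Of the 13 astrocyte markers tested 12 had a lower ELS median and 1 a higher one, with a median log2 ratio of -0.35 beside 0.05 over all genes, and 3 had an unadjusted exact p under 0.05, where 1.64% of all genes were that low. Among genes from 20 to 100 CPM 2.66% were that low, and at 100 CPM or more 3.82%. Gja1, the astrocyte gap junction protein, stood at 12.5, 34.9 and 45.2 CPM in ELS and at 37.3, 56.2 and 130 CPM in Standard (8 of 64 pairs, exact p = 0.0104). Slc1a3, a glutamate transporter, had medians of 257 and 341 CPM (exact p = 0.0148), and Aqp4, the water channel of astrocyte endfeet, 47.9 and 70.3 CPM (exact p = 0.0379, and 0.0932 without the shallow libraries). Their adjusted p-values were all above 0.05. Averaged over the list, the ELS library was higher in 10 of 64 pairs. Leaving out the shallow libraries left 0 astrocyte markers higher and 13 lower.

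Myelin and microglia markers also had mostly lower medians. Of 16 oligodendrocyte and myelin genes 14 were lower and 2 higher by medians (median log2 ratio -0.44), and without the shallow libraries all 16 were lower (-0.57). Averaged over that list ELS was higher in 17 of 64 pairs. Myrf, the transcription factor of myelination, had medians of 19.9 and 35.5 CPM (exact p = 0.083). Among 12 microglia markers 11 were lower and 1 higher (median -0.33), and none had an unadjusted exact p under 0.05. Averaged over them ELS was higher in 27 of 64 pairs. Csf1r, their growth factor receptor, had medians of 85.6 and 137 CPM and the lectin Siglech 18.2 and 34.9 CPM. The 8 precursor markers split 3 and 5 (median -0.19, and 4 and 4 under upper quartile scaling), with Pdgfra at 10.8 and 16.1 CPM.

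Vessel and interneuron markers had higher medians. Of 14 endothelial and pericyte markers 11 were higher and 3 lower (median log2 ratio 0.48, and 0.59 without the shallow libraries), none at an unadjusted exact p under 0.05. Flt1, a VEGF receptor, stood at 30.3, 63.5 and 77.0 CPM in ELS and at 14.1, 39.7 and 78.8 CPM in Standard (47 of 64 pairs, exact p = 0.13). Of 11 striatal interneuron markers 9 were higher and 2 lower (median 0.28, and 0.15 without the shallow libraries). Vip had medians of 1.61 and 0.720 CPM (exact p = 0.0626) and Kit 7.88 and 6.54 CPM. Vip lay below 5 CPM, and all tested genes with a median below that level had a median log2 ratio of 0.18. Markers of excitatory and neighbouring-region neurons split 9 higher and 5 lower of 14 (median 0.27, and 0.07 on raw library totals). Only 4 choroid plexus and ependymal and 3 blood markers passed the low-count filter, 3 and 2 of them higher. The part that any of these cells played in other results was not tested.

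**Figure D4:**
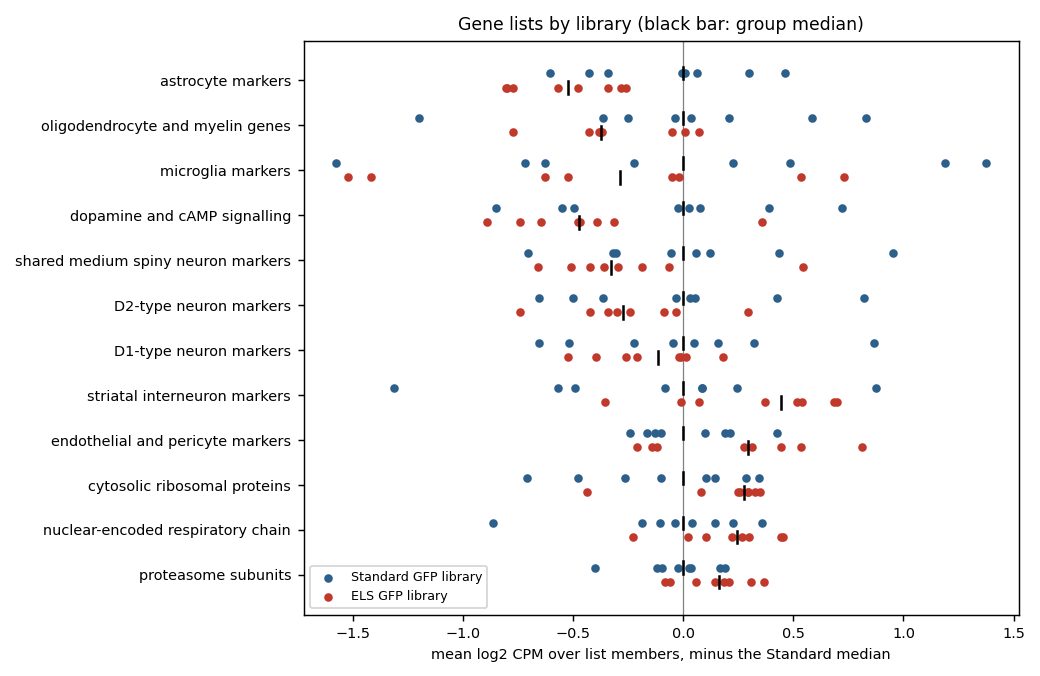
Mean log2 CPM over the tested members of 12 gene lists in each Standard (blue) and ELS (red) library, minus the Standard median of the list, with black bars for group medians. Astrocyte markers sit lower in ELS (higher in 10 of 64 pairs) and proteasome subunits higher (49 of 64 pairs), and the groups overlap in every list.

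Genes of the medium spiny neurons and of their dopamine and cAMP signalling had mostly lower medians. Of 20 markers shared by both types 15 were lower and 5 higher (median log2 ratio -0.26, and -0.10 under upper quartile scaling). Pde10a stood at 269, 331 and 480 CPM in ELS and at 319, 462 and 1015 CPM in Standard (14 of 64 pairs, exact p = 0.065). Kcnab1, a potassium channel subunit, had medians of 17.8 and 24.6 CPM (exact p = 0.105), and Ppp1r1b, which encodes the dopamine-regulated phosphatase inhibitor DARPP-32, 11.7 and 15.0 CPM (exact p = 0.442). Kcnab1 went from a log2 ratio of -0.46 to 0.003 without the shallow libraries, and Ppp1r1b from -0.35 to -0.80.

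Of 21 dopamine and cAMP signalling genes 17 were lower and 4 higher (median -0.35, and -0.49 without the shallow libraries), 2 of them lower at an unadjusted exact p under 0.05 (1.64% of all genes were that low). By level, 1.51% of genes from 5 to 20 CPM and 3.82% at 100 CPM or more were that low. Pde4b, a phosphodiesterase that breaks down cAMP, stood at 259, 327 and 482 CPM in ELS and at 387, 498 and 648 CPM in Standard. It was higher in ELS in 7 of 64 pairs (exact p = 0.00699, edgeR log2 fold change -0.53 with an SE of 0.20 and an adjusted p of 0.224). Gnb5, a G protein beta subunit, had medians of 7.39 and 11.7 CPM (exact p = 0.0379, and 0.0932 without the shallow libraries), and Prkacb, a catalytic subunit of protein kinase A, 85.4 and 111 CPM (exact p = 0.065).

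The D2-type list, the cells named in the series' design, had 8 lower and 2 higher members of 10 (median -0.27, and 4 higher on raw library totals). Penk, the enkephalin precursor, stood at 20.1, 53.4 and 259 CPM in ELS and at 26.2, 194 and 467 CPM in Standard. In 15 of 64 pairs ELS was higher (exact p = 0.083), the log2 ratio of medians was -1.86 and edgeR gave -1.49 with an adjusted p of 0.218. In ELS 7 libraries held 65.8 CPM of Penk or less and replicate 2 held 259 CPM. In Standard 6 libraries held 103 CPM or more, and replicates 4 and 7 held 43.5 and 26.2 CPM. Drd2 stood at 29.9, 58.9 and 630 CPM in ELS and at 29.6, 87.1 and 241 CPM in Standard (exact p = 0.234), with ELS replicate 2 at the top. Adora2a, an adenosine receptor, had medians of 5.71 and 7.96 CPM (exact p = 0.382). Sp9, a transcription factor of D2-type neurons, lay the other way at 12.01 and 9.48 CPM (53 of 64 pairs, exact p = 0.0281).

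D1-type markers split 5 higher and 7 lower of 12 (median -0.12, and 6 and 6 under upper quartile scaling). Drd1 stood at 0.183, 4.24 and 7.75 CPM in ELS and at 2.00, 6.70 and 28.9 CPM in Standard (exact p = 0.328). Without the shallow libraries Drd1 was higher in ELS in 5 of 40 pairs (log2 ratio -1.85, unadjusted exact p = 0.0295, adjusted 0.816). Tac1, the substance P precursor, had medians of 3.21 and 1.88 CPM (exact p = 0.878), and its log2 ratio of 0.64 turned to -1.13 without them. Pdyn, the dynorphin precursor, had medians of 5.81 and 6.78 CPM (exact p = 0.721), Ebf1 33.8 and 24.6 CPM and Slc35d3 1.70 and 3.21 CPM. The log2 ratio of Pdyn moved from -0.21 to -1.22 without the shallow libraries, that of Ebf1 from 0.45 to 0.29 and that of Slc35d3 from -0.75 to 0.02. Whether the D1-type and D2-type lists differed from each other was not tested.

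**Figure D5:**
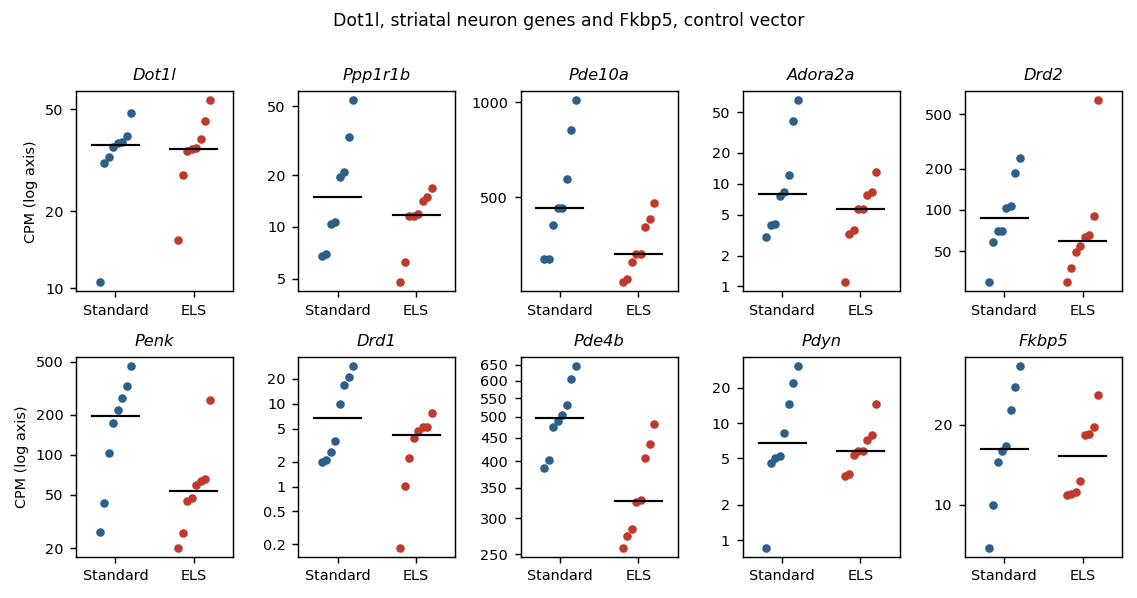
CPM on a log axis of Dot1l, Fkbp5, Pde4b and 7 striatal neuron genes in each Standard (blue) and ELS (red) library, with group medians as black bars. Dot1l medians are 36.3 CPM in Standard and 35.0 CPM in ELS, and Penk spreads from 26.2 to 467 CPM within Standard.

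Dot1l itself stood at 15.4, 35.0 and 54.2 CPM in ELS and at 10.6, 36.3 and 48.5 CPM in Standard, with ELS higher in 32 of 64 pairs. Kdm2b, an H3K36 demethylase, had medians of 24.5 and 17.2 CPM (47 of 64 pairs, exact p = 0.13), and edgeR's log2 fold change for it was -0.08. Its log2 ratio of 0.50 became 0.12 without the shallow libraries. Of 18 DOT1L partners and elongation complex genes 9 were higher and 9 lower, and Ccnt1, a cyclin of the elongation kinase, had medians of 15.8 and 22.1 CPM (exact p = 0.0281). Other histone lysine methyltransferases and demethylases split 15 and 16 of 31, with Kdm4b at 25.7 and 31.3 CPM. Of 16 DNA methylation genes 5 were higher and 11 lower (median -0.05). Besides Tet2, the demethylation glycosylase Tdg had medians of 8.98 and 13.2 CPM (exact p = 0.0379).

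Clock genes held 3 of the small p-values. Of 16 measured 10 were lower and 6 higher (median log2 ratio -0.14), and Tef, Npas2 and Rora had an unadjusted exact p under 0.05, all 3 lower, beside 1.64% of all genes lower at that level. That share was 2.66% for genes from 20 to 100 CPM and 3.82% at 100 CPM or more. Npas2, a CLOCK paralog, stood at 57.8, 74.4 and 136 CPM in ELS and at 72.7, 107 and 187 CPM in Standard (11 of 64 pairs, exact p = 0.0281), and Rora, a nuclear receptor, had medians of 377 and 470 CPM (exact p = 0.0499). The hour of collection is not given.

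Among glucocorticoid genes and immediate early genes only Dusp5, described above, had an unadjusted exact p under 0.05. Nr3c1, the glucocorticoid receptor, had medians of 53.4 CPM in ELS and 59.5 CPM in Standard (31 of 64 pairs, exact p = 0.959), and Fkbp5, its co-chaperone and target, 15.3 and 16.3 CPM (exact p = 0.798). Over the 17 members 7 were higher and 10 lower (median -0.08, which turned to 0.03 without the shallow libraries), and the metallothionein Mt1 had medians of 14.4 and 27.8 CPM (exact p = 0.065). Of 20 immediate early genes 14 were higher and 6 lower (median 0.14, and 11 and 9 without the shallow libraries). Apart from Dusp5, Fos had medians of 13.5 and 11.4 CPM (exact p = 0.878), Egr1 54.6 and 52.1 CPM (exact p = 0.959), Fosl2 19.5 and 17.5 CPM and Nr4a1 27.1 and 20.0 CPM. Bdnf, a neurotrophin, had medians of 5.70 and 4.48 CPM (exact p = 0.878). Stress peptides and receptors split 8 and 6 of 14 (median 0.22, and -0.16 without the shallow libraries). In that list Npy1r, a neuropeptide Y receptor, had medians of 2.95 and 5.87 CPM (8 of 64 pairs, exact p = 0.0104) and Tacr1, the substance P receptor, 12.9 and 5.86 CPM (exact p = 0.065).

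Genes of protein synthesis, respiration and protein breakdown had slightly higher medians. Of 73 cytosolic ribosomal protein genes 57 were higher and 16 lower (median 0.17), 7 of them higher at an unadjusted exact p under 0.05 (3.77% of all genes) and 0 lower. Rps12 had medians of 4.11 and 2.28 CPM (58 of 64 pairs, exact p = 0.00466). Ribosomal genes have many near-identical pseudogenes, so their counts are uncertain. Of 74 nuclear-encoded respiratory chain genes 56 were higher and 18 lower (median 0.19, with 4 higher and 0 lower at that unadjusted level). Ndufc1, a complex I subunit, had medians of 3.96 and 1.87 CPM (59 of 64 pairs, exact p = 0.00295), Uqcr10 7.81 and 3.82 CPM and Atp5g2 4.57 and 2.35 CPM. Rps12, Ndufc1 and Atp5g2 lay below 5 CPM, the level class in which higher genes were most frequent. The 13 mitochondrially encoded mRNAs were 12 lower and 1 higher (median -0.14), with mt-Atp6 at 902 and 1077 CPM (exact p = 0.234). Averaged over these 13, however, the ELS library was higher in 33 of 64 pairs, and their median edgeR log2 fold change was -0.03.

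Of 37 proteasome subunits 29 were higher and 8 lower (median 0.21), with Psmc3 at 24.2 and 16.001 CPM and Psmd12 at 13.7 and 9.72 CPM higher and Psmb6 at 6.30 and 9.30 CPM lower (exact p = 0.0499, 0.0281 and 0.0499). Without the shallow libraries the exact p of Psmc3 was 0.171. Heat shock and DnaJ chaperones split 34 and 30 of 64 (median 0.01, and -0.02 without the shallow libraries). Among them Bag2 had medians of 2.89 and 0.832 CPM (exact p = 0.0145) and Dnajc7 15.4 and 22.7 CPM (exact p = 0.0379, and 0.171 without the shallow libraries).

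Synaptic and channel lists had median log2 ratios between -0.08 and 0.02, beside 0.05 over all genes. Glutamate receptors were 10 higher and 14 lower of 24 (median -0.08), with Grm5 at 394 and 474 CPM and Grm8 at 141 and 99.0 CPM (exact p = 0.065 for both). GABA genes were 9 and 11 of 20 (median -0.08). Gabbr1, the subunit of the GABA-B receptor that binds GABA, stood at 110, 147 and 195 CPM in ELS and at 128, 205 and 384 CPM in Standard (10 of 64 pairs, exact p = 0.0207). Postsynaptic scaffolds and adhesion genes split 9 and 11 of 20 (median -0.01, and 0.11 without the shallow libraries), with Dlgap3 at 97.6 and 117 CPM. Presynaptic release genes split 13 and 10 of 23 (median 0.02, and -0.07 on raw library totals), with Syn2, a synapsin of vesicles, at 137 and 97.1 CPM. Potassium channels split 14 and 17 of 31 (median -0.02, and 0.07 under upper quartile scaling), and Kcnj3, a channel gated by G proteins, had medians of 139 and 106 CPM (55 of 64 pairs, exact p = 0.0148). Calcium and sodium channels split 11 and 11 of 22, with Cacna2d2 at 28.8 and 39.7 CPM (exact p = 0.0379).

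The remaining lists held few small p-values. Of 15 perineuronal net and matrix genes 7 were higher and 8 lower (median -0.13), and the proteoglycan Bcan had medians of 43.6 and 58.7 CPM (exact p = 0.0207). Cholesterol synthesis enzymes were 7 higher and 13 lower of 20 (median -0.18), with Hmgcs1 at 18.9 and 13.2 CPM on the higher side (54 of 64 pairs, exact p = 0.0207). Interferon-stimulated genes were 8 higher and 17 lower of 25 (median -0.12), none at an unadjusted exact p under 0.05. Of 5 nuclear-retained long RNAs 2 were higher and 3 lower, and Malat1 had medians of 2569 and 3387 CPM (exact p = 0.0379, and 0.127 without the shallow libraries). No member of any list passed an adjusted p of 0.05 in either test.

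The H3K79me2 lists, 1 per rearing group, give the mark at these genes. They are not values per library and allow no test between groups. Covered length was shorter in the ELS list for 93.7% of the tested genes that had a peak, so a shorter length at a gene is shared with most genes. Phlpp1 was covered over 140099 bases by 54 peaks in the Standard list and over 119922 bases by 66 peaks in the ELS list, with highest folds of 3.17 and 2.97. Tet2 was covered over 42438 and 37260 bases, and Tef over 10936 and 7894. Acsl5 had no peak in the Standard list and 1 of 252 bases in the ELS list, and Dusp5, Rpl10a and Tnfsf10 had none in either. The leading lower genes Fam20a, Megf10 and Vat1 also had none in either. The leading higher genes Prkar2a, Nap1l4 and Cdc5l were covered over 19520, 12058 and 9628 bases in the Standard list. On each side 9 of the 12 leading genes (75.0%) had a peak. A peak in at least 1 list was present at 59.4% of all genes tested, at 43.4% of the 528 higher and at 74.3% of the 230 lower genes. By class of level, the shares for all, higher and lower genes were 33.0%, 22.4% and 44.7% below 5 CPM, 64.9%, 64.4% and 69.4% from 5 to 20 CPM, 84.0%, 83.8% and 85.9% from 20 to 100 CPM, and 88.3%, 60.0% (of 5 genes) and 89.3% at 100 CPM or more. They lay closer together than over all genes in the middle classes, and higher and lower genes stayed apart in the lowest class. That split by level was chosen after the shares were seen.

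The 24 leading genes were looked up in the RNA libraries with Dot1l-directed vectors, which share no library with the groups above, a comparison added after their values were seen. There 8 libraries are labelled ELS with the knockdown vector and 8 Standard with the overexpression vector, so rearing and vector cannot be told apart. By medians, 9 of the 12 leading higher genes were higher in the ELS knockdown libraries, where 49.3% of all genes were, and 8 of the 12 leading lower genes were lower, where 50.7% of all genes were. By pairs, counting a gene as higher in more than 32 of 64 and lower in fewer, these counts were 6 (44.4% of all genes) and 8 (51.2%). Only Rpl10a had an unadjusted exact p under 0.05 on the same side (18.0 and 12.05 CPM, 52 of 64 pairs, p = 0.0379), and none of the 24 passed after adjustment over all genes. Phlpp1 had medians of 102 CPM in the ELS knockdown and 106 CPM in the Standard overexpression libraries, with the former higher in 27 of 64 pairs (exact p = 0.645). Acsl5 had medians of 4.72 and 4.22 CPM and was higher in 32 of 64 pairs.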

How the data were processed

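RNA counts of 16 libraries, 8 ELS and 8 Standard, all labelled GFP, were compared. The authors deposited raw counts per Ensembl mouse gene, not normalized, since all values are whole and library totals differ. FastQC, HISAT2, featureCounts, DESeq2 and the build mm10 are named in the submitters' processing notes, without versions or roles. The deposited count table's own name speaks of HTSeq, so the program that counted is not settled. Whether counting used strand is not stated there, so overlapping and antisense genes cannot be told apart. The authors' H3K79me2 peak lists give each peak's q-value and its enrichment as a ratio (fold), per the file headers. Folds and coordinates are printed as the lists give them. Symbols matched 52403 of 52636 gene IDs, and 0 columns of the count table lacked a sample.

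EdgeR 4.0.16 (R 4.3.3) fitted all 32 RNA libraries with a mean per group: TMM, filterByExpr, the robust quasi-likelihood test, 28 residual degrees of freedom. The SE is the absolute log2 fold change over the square root of F. The exact 2-sided permutation test ranked CPM over all 12870 assignments of 8 of 16 libraries. P-values were adjusted by Benjamini-Hochberg over 14016 genes, with a threshold of 0.05. Named genes were the 12 per direction with the smallest rank p (median of at least 5 CPM in a group), up to 3 per direction with the smallest edgeR p that also had a rank p under 0.05, up to 3 members of each of 36 gene lists, and a fixed set of striatal and stress genes. List members were counted by the log2 ratio of medians, and a list's score in a library is its mean log2 CPM (prior count 2). A few of these genes are not reported here. Members and lists were chosen with earlier results of these data known. Both tests were run on simulated counts. These had a smaller spread than the real libraries, where edgeR's common coefficient of variation was 0.57, and no single extreme libraries. That run therefore does not show how the tests perform on these data. Alternatives were other scalings, filters, tools (DESeq2 1.42.0, limma 3.58.1) and left-out libraries. Promoters came from RefSeq (GRCm38.p6); 19 of the 24 leading genes matched. Other tools were Python 3.11.15, numpy 2.4.6, pandas 2.3.3, scipy 1.17.1 and matplotlib 3.10.9.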

Additional observations from a re-analysis of the deposited data

Results flagged for a closer look

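Each value here lay apart from the other 7 libraries of its group by more than a gap test (Dixon's, 95% level) allows; chance flags about 1 in 20 groups. ELS replicate 2 was the highest ELS library for Acsl5 (62.0 CPM), Rpl10a (24.5 CPM), Prkar2a (101 CPM), Dusp5 (149 CPM), Dab2 (109 CPM), Drd2 (630 CPM) and Penk (259 CPM). It was also highest in the mean log2 CPM of dopamine and cAMP signalling (6.22), glutamate receptors (7.29) and calcium and sodium channels (6.94). ELS replicate 4 was highest for Fos (31.9 CPM), and ELS replicate 6 for Nr3c1 (84.1 CPM) and Pdyn (14.5 CPM). ELS replicate 6 was lowest in cytosolic ribosomal proteins (3.40) and ELS replicate 3 in DOT1L partners (4.81), both as mean log2 CPM.

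Standard replicate 5, which held 0.546 M counts, was the lowest Standard library for Rpl10a (0.0 CPM), Osgep (0.0 CPM), Nap1l4 (7.05 CPM) and Dot1l (10.6 CPM), and the highest for Mapk7 (44.0 CPM) and Tspan7 (331 CPM). It was lowest in the mean log2 CPM of cholesterol synthesis enzymes (1.36), DOT1L partners (4.39), nuclear-encoded respiratory chain genes (2.15) and the Y-linked check genes (2.72). Standard replicate 6 was highest for Gak (219 CPM), Fads2 (213 CPM), Snx25 (223 CPM), Kdm2b (81.3 CPM) and the mean of other histone lysine methyltransferases and demethylases (5.81). Standard replicate 1 was highest for Nkapd1 (27.0 CPM), and Standard replicate 2 was lowest in potassium channels (5.49).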

How the results depend on the processing

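Calls past the threshold were 0 under every rank alternative and, for edgeR, under all alternatives run except 2: DESeq2 called 88 genes, and edgeR without the shallow libraries called 7. Counts at an unadjusted p under 0.05 moved more. EdgeR's 560 higher and 1084 lower genes became 371 and 543 with limma voom and quality weights, 2446 and 1706 with no low-count filter, and 701 lower under upper quartile scaling. With the title number as a factor 490 were higher and 425 lower. Leaving out 1 library in turn gave 341 to 660 higher and 668 to 1261 lower genes. The rank test's 528 higher genes became 233 at a median of at least 5 CPM and 1140 with no filter; its 230 lower genes became 139 under upper quartile scaling and 381 without the shallow libraries; leaving out 1 library gave 344 to 532 higher genes. The causes were not tested, beyond the smaller or larger number of genes that a filter leaves. Upper quartile scaling moved the median log2 ratio of all genes from 0.05 to 0.11.

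Some values changed sign. EdgeR's log2 fold change turned for Fos to 0.172 (voom), 0.123 (upper quartile) and 0.048 (without shallow libraries), for Nr3c1 to 0.051 (upper quartile) and 0.032 (without shallow), for Kdm2b to 0.093 (voom), 0.008 (title number) and 0.069 (upper quartile), for Drd2 from 0.22 to -0.90 (voom), for Egr1 to 0.12 (voom), 0.003 (no filter), 0.094 (title number), 0.126 (upper quartile) and 0.125 (without shallow), for Bdnf to 0.288 (voom) and for Dot1l to -0.041 (voom) and -0.055 (without shallow). The log2 ratio of medians turned for Nr3c1 to 0.038 (upper quartile) and 0.052 (without shallow), for Egr1 to -0.086 (raw totals) and -0.052 (without shallow), for Dot1l to 0.005 (no filter) and 0.011 (upper quartile and without shallow), and, all without shallow libraries, for Tac1 from 0.64 to -1.126, Kcnab1 from -0.46 to 0.003, Slc35d3 from -0.75 to 0.02 and Clic6 to -0.508. No paired analysis was possible because replicate numbers follow the accession order; the title number, unequally spread over the groups, entered as a factor (above). Of the 56 genes picked by the naming rule with an unadjusted exact p under 0.05, 45 stayed under it without the shallow libraries.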
